A study of Mus musculus with 12 samples.

Results

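The transcripts described here are those encoded by the mitochondrial genome, taken as the rows of the deposited gene table whose symbol begins with mt-. They were 37 of 34193 rows: 2 ribosomal RNAs, 13 mRNAs and 22 transfer RNAs. Of the 37, 14 had at least 1 read in any of 12 libraries and 23 had none. A mean of at least 10 normalised reads, the filter for testing, was passed by 9 of them: both rRNAs and 7 mRNAs.

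The libraries came from total RNA of the cerebral cortex of mice aged 8 weeks. The conditional knockouts (cKO, 6 libraries) were Nsd1 flx/flx and Nestin-cre +/-, and the controls (6 libraries) were Nsd1 flx/flx and Nestin-cre -/-. Both groups thus carried loxP-flanked Nsd1, which encodes an enzyme that methylates histone H3 at lysine 36, and only the cKO carried Cre. The Nestin promoter drives Cre in neural progenitors, so neurons and most glia descend from recombined cells, whereas blood cells and microglia do not. The labels call the samples biological replicates without naming animals, so each p-value speaks only of the spread among the 12 libraries. RNA was depleted of rRNA before a directional library was made, with a kit directed against cytosolic and mitochondrial rRNA, so the levels of the mitochondrial rRNAs are those left after depletion. In bulk tissue, fewer cells of a type and less RNA per cell cannot be told apart.

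Reads assigned to genes numbered 14.6 to 27.0 M per cKO library and 10.5 to 21.1 M per control library. Control 4 was the shallowest of the 12 libraries, followed by control 5 (13.5 M) and control 6 (13.8 M). Library numbers follow the column names. The sum of 4 Y-linked genes was at least 1768 normalised reads in libraries 1 to 3 of either genotype and at most 3.09 in libraries 4 to 6, against the labelled sex of the sample with that number in 8 of 12 cases, so columns were assigned to a genotype only. Nsd1 averaged 3251 ± 299 normalised reads in the cKO and 4235 ± 850 in the controls (SD, n = 6 each), and its difference was not called (log2 fold change -0.36, limma adjusted p = 0.383). Markers of excitatory cortical neurons were high in every library, whereas those of choroid plexus and ependyma summed to at most 214 normalised reads in the cKO and 244 in the controls. Among the 13 lists examined, Aqp4 of the astrocyte markers was the only called gene.

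Mitochondrial DNA is transcribed from both strands into long precursors that span most of the circle. The tRNAs lie between the other genes and are cut out, which frees the rRNAs and mRNAs. The heavy-strand precursor holds both rRNAs, 14 tRNAs and all the mRNAs except mt-Nd6, which is read from the light-strand precursor together with 8 tRNAs. The mRNAs encode subunits of complexes I, III and IV and of ATP synthase, the enzymes of oxidative phosphorylation, on which neurons rely for most of their ATP. The heavy-strand mRNAs share a precursor, and after cleavage they are known to be processed and degraded at unequal rates.

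The sequences bear on which of the 37 could be counted, because the nuclear genome carries old insertions of mitochondrial DNA. All 37 symbols matched a transcript in the GENCODE M21 annotation of GRCm38. For each, the share of its 50-base words that also stand in an annotated nuclear transcript was computed. The submitters' notes name build mm9, so no coordinates are given. Shown here are the first 60 bases of mt-Co2, which encodes a catalytic subunit of complex IV and has an identical copy, and the first 60 bases of mt-Nd3 (complex I) and mt-Nd6 (complex I) with those of their closest nuclear copies. They are written 5′ to 3′, and capitals mark the bases at which a transcript and its copy differ.
mt-Co2: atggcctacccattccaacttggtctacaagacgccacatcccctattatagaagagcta
mt-Nd3: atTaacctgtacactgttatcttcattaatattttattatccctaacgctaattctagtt
Gm28438, the copy of mt-Nd3: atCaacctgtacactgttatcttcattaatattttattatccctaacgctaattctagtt
mt-Nd6: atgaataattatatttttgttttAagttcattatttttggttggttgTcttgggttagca
Gm11408, the copy of mt-Nd6: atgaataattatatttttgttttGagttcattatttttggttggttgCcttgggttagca

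The 6 mRNAs that did not pass the filter had 11 reads in all 12 libraries together, whereas the lowest of the 7 measured mRNAs, mt-Nd6, had 41386. For 5 of the 6, nearly the whole transcript also stood in a nuclear copy on chromosome 1. The shared words made up 100% of mt-Co2 (copy Gm28661), 99.9% of mt-Co3 (Gm28437), 99.5% of mt-Atp6 (Gm10925), 98.8% of mt-Nd4l (Gm10222) and 97.99% of mt-Nd3 (Gm28438). The mt-Nd3 copy differed from the transcript at 1 of 345 aligned bases, the difference shown above. The sixth, mt-Atp8 of ATP synthase, shared no 50-base word and only 43 bases of Gm10925. It too had 0 reads, and it overlaps mt-Atp6 in the mitochondrial genome.

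Reads on the unmeasured mRNAs were few in either genotype. mt-Nd3 had 3, 1, 0, 2, 0 and 1 reads in cKO 1 to 6, against 0, 2, 0, 0, 0 and 0 in control 1 to 6. mt-Co2 had 1 (in cKO 6) and mt-Atp6 had 1 (in control 5), while mt-Co3, mt-Nd4l and mt-Atp8 had none. A count of 0 allows up to 3 reads, which in these libraries stand for 1.98 to 5.64 normalised reads. No library exceeded that number for any of the 6, so no fold change is given. Tests without the filter, by limma and by DESeq2, called none of the 3 that had reads, with adjusted p-values from 0.618 (mt-Nd3, limma) upwards.

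The 7 measured mRNAs shared less. No 50-base word of mt-Nd1, mt-Nd6 or mt-Cytb stood in a nuclear transcript, and for mt-Nd5 and mt-Nd2 the shares were 7.61% and 8.19%. mt-Co1, the catalytic core of complex IV, reached 51.1% and mt-Nd4 of complex I 62.2%, and both were counted at high levels. The nuclear copies with a row of their own had almost no reads: Gm10925 had 1 and Gm10222 had 0 over all libraries. No source used here says how reads that match several places were treated, and the part of shared sequence in the low counts was not tested.

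**Figure D1:**
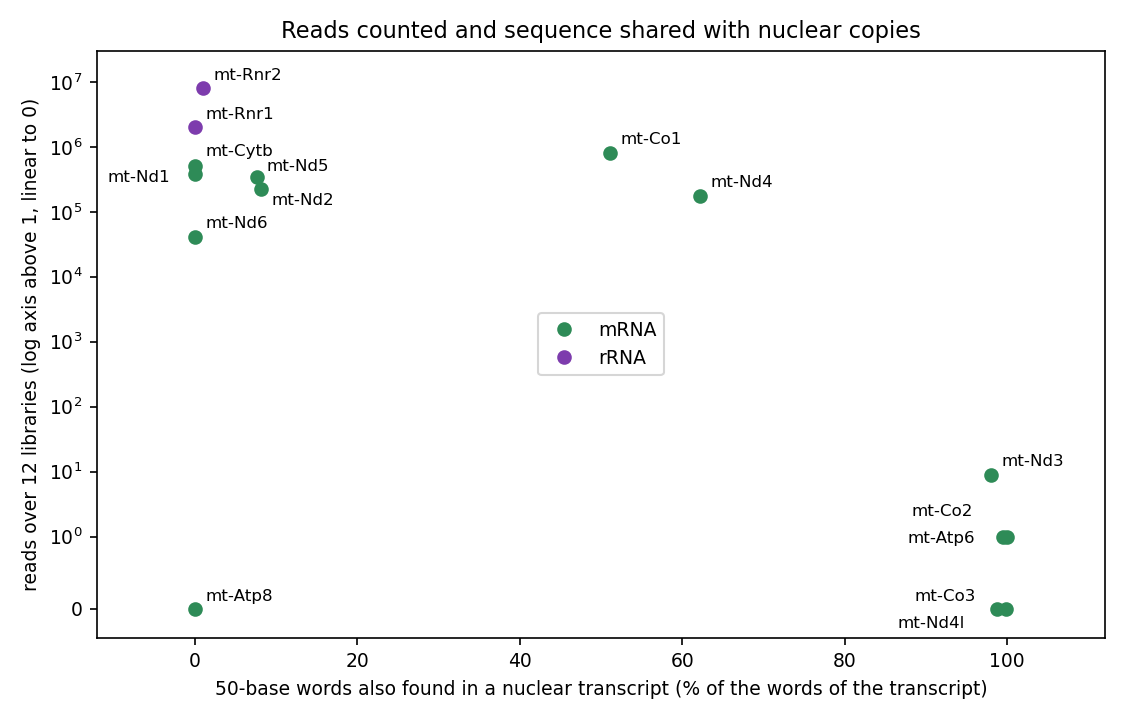
Reads over 12 libraries (log axis above 1, linear down to 0) against the percentage of the 50-base words of each transcript that stand in an annotated nuclear transcript, for 13 mRNAs and 2 rRNAs. The 5 mRNAs at 97.99% or above and mt-Atp8 at 0% lie at 9 reads or fewer, and all other points lie at 41386 reads or more.

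The tRNAs, which deliver amino acids to the mitochondrial ribosome, were almost absent from these libraries, with 64 reads in all. Only 2 of 22 had any: mt-Tm, the methionine tRNA, with 38 and mt-Tl1, a leucine tRNA that lies between mt-Rnr2 and mt-Nd1, with 26. Their sequences are shown because they are the only tRNAs counted.
mt-Tl1: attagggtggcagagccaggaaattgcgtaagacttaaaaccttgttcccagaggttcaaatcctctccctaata
mt-Tm: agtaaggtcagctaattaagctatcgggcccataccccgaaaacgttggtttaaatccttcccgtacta
The annotated tRNAs are 59 to 75 bases long and none shared a 50-base word with a nuclear transcript. Summed tRNA reads were 4, 5, 4, 0, 8 and 9 in cKO libraries 1 to 6, against 3, 4, 2, 9, 14 and 2 in control libraries 1 to 6. The groups overlapped. mt-Tm had 14 reads in the cKO and 24 in the controls, of which 13 were in control 5, and mt-Tl1 had 16 in the cKO and 10 in the controls. Without the filter, limma gave log2 fold changes of -0.93 for mt-Tm (adjusted p = 0.630) and 0.05 for mt-Tl1 (adjusted p = 0.979), and DESeq2 gave -1.01 (adjusted p = 0.838) and 0.23 (adjusted p = 0.993).

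Per base of transcript, the rRNAs stood above the mRNAs. Over the 12 libraries mt-Rnr2, the 16S rRNA of the large ribosomal subunit, averaged 473 ± 370 normalised reads per base of its length (SD). mt-Rnr1, the 12S rRNA of the small subunit, averaged 201 ± 203 reads per base. The order of these levels was mt-Rnr2, mt-Rnr1, mt-Co1 (45.3 ± 19.6), mt-Cytb of complex III (38.4 ± 19.2), mt-Nd1 (34.8 ± 17.3), mt-Nd2 (19.0 ± 9.47), mt-Nd5 (16.4 ± 8.73), mt-Nd4 (11.2 ± 6.05) and mt-Nd6 (6.97 ± 2.98).

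Each neighbouring pair in this order differed by less than the SD of the higher member. Within libraries the order was steadier. mt-Rnr2 exceeded mt-Rnr1 in 12 of 12 libraries, as did mt-Nd1 mt-Nd2, mt-Nd2 mt-Nd5, and mt-Nd5 mt-Nd4. mt-Cytb exceeded mt-Nd1 in 11. mt-Rnr1 exceeded mt-Co1 in 10, as did mt-Co1 mt-Cytb, and mt-Nd4 mt-Nd6. When the reads were divided only by the bases outside shared words, a calculation chosen after seeing the data, the level of mt-Nd4 was 30.7 reads per base, above mt-Nd2 at 23.0 and mt-Nd5 at 21.7, and that of mt-Co1 was 180 reads per base. The place of mt-Nd4 in the order therefore depends on how shared bases are treated.

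Among single libraries, control 4 held the highest value of each of the 9 measured transcripts. mt-Rnr1 stood at 54998, 185848, 26866, 75567, 192258 and 194154 normalised reads in cKO libraries 1 to 6, against 97401, 125206, 17616, 641271, 519047 and 176314 in control libraries 1 to 6. mt-Rnr2 stood at 351078, 577237, 271315, 470260, 667808 and 865260 in cKO 1 to 6, against 419534, 491705, 218414, 2161961, 1642191 and 836581 in control 1 to 6. Controls 4 and 5 lay above every cKO library for both rRNAs, the other 4 controls lay within or below the cKO range, and control 3 was the lowest of all. The groups overlapped.

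Of the measured mRNAs, 4 encode subunits of the membrane arm of complex I and are read from the heavy-strand precursor. mt-Nd1 stood at 22509, 32558, 24963, 12208, 35402 and 36358 normalised reads in cKO 1 to 6, against 19811, 29636, 22433, 69561, 60611 and 33419 in control 1 to 6. mt-Nd2 stood at 13509, 19102, 14736, 8531, 18907 and 22454 in cKO 1 to 6, against 11622, 18613, 12668, 44173, 32024 and 20533 in control 1 to 6. For both, controls 4 and 5 were the highest and cKO 4 the lowest of the 12, and the groups overlapped.

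mt-Nd4 stood at 9641, 15071, 11951, 5446, 13338 and 18387 normalised reads in cKO 1 to 6, against 8681, 14074, 9840, 36493, 24265 and 17660 in control 1 to 6. mt-Nd5 stood at 17888, 29317, 22553, 11536, 28711 and 32382 in cKO 1 to 6, against 16876, 27807, 19782, 66228, 55328 and 30660 in control 1 to 6. The same libraries were at the ends: controls 4 and 5 above, cKO 4 below.

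Complexes III and IV followed. mt-Cytb stood at 29065, 42741, 34544, 17718, 40709 and 49255 normalised reads in cKO 1 to 6, against 25744, 40027, 29585, 97167, 73791 and 47247 in control 1 to 6. mt-Co1 stood at 44826, 66601, 69471, 36979, 49670 and 84233 in cKO 1 to 6, against 37459, 63328, 62067, 145000, 96927 and 82929 in control 1 to 6. The lowest mt-Co1 value, in cKO 4, lay close to that of control 1, and the groups overlapped.

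mt-Nd6, also a complex I subunit but read from the light strand, had another order. It stood at 1786, 2829, 4144, 4872, 2098 and 3159 normalised reads in cKO 1 to 6, against 1692, 3013, 3773, 6913, 5371 and 3760 in control 1 to 6. Here cKO 4 was the highest of the cKO libraries rather than the lowest, and control 1 was the lowest of the 12. The kit keeps the strand, but no source used here says whether the counting did. If it did not, reads of mt-Nd6 cannot be told apart from reads of heavy-strand RNA that lies opposite it.

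**Figure D2:**
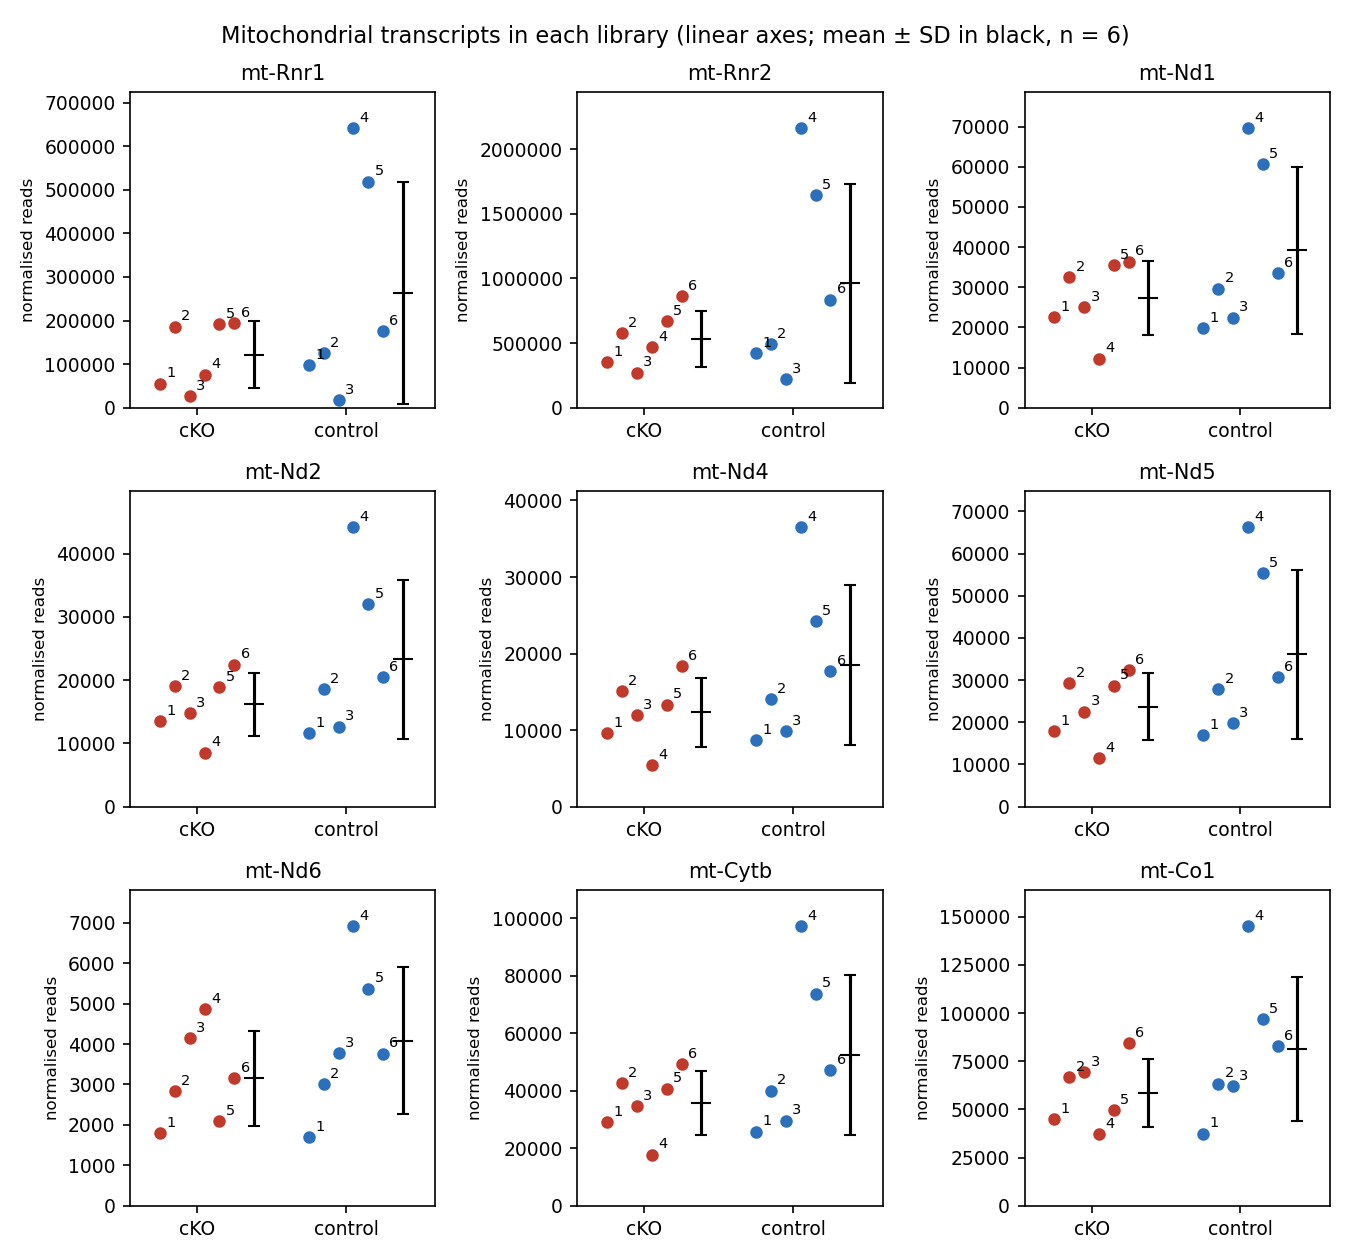
Normalised reads (linear axes from 0) of the 9 measured mitochondrial transcripts in cKO (left, red) and control (right, blue) libraries, each point 1 library with its number, with the mean ± SD in black (n = 6). Controls 4 and 5 are high in every panel, and cKO 4 is lowest of the cKO libraries for the 6 heavy-strand mRNAs but highest for mt-Nd6.

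These transcripts varied more between libraries than most genes did. Over the 12 libraries the SD of the log2 value was 1.54 for mt-Rnr1, whose highest and lowest values differed 36.4-fold, and 0.98 for mt-Rnr2. It lay between 0.579 (mt-Co1) and 0.722 (mt-Nd4) for the mRNAs. The median SD of all 14397 tested genes was 0.214, and that of the 1213 genes that averaged 3000 normalised reads or more was 0.179.

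The genotype comparison asks whether the mitochondrial transcripts differ in cortex with and without Nestin-Cre recombination of Nsd1. None of the 9 was called different. In a limma fit of log2 values with genotype and a term for Y-linked reads, 0 of 9 reached an adjusted p under 0.05, and 0 of 9 reached an unadjusted p under 0.05. Of all 14397 genes tested, 0.834% were called, 0.0695% were called lower in the cKO, and 9.73% had an unadjusted p under 0.05. edgeR and DESeq2 on the recovered reads also called 0 of 9. The fold changes of the 9 all lay below 0, with a median of -0.46 on the log2 scale, against a median of -0.00069 over all tested genes, of which 50.1% lay below 0. The 9 transcripts move together from library to library, so they are not 9 separate observations of this direction.

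The rRNAs had the widest errors. mt-Rnr1 averaged 121615 ± 77348 normalised reads in the cKO and 262809 ± 254081 in the controls (SD, n = 6 each), and its log2 fold change was -0.67 with an SE of 0.55 (limma adjusted p = 0.639). mt-Rnr2 averaged 533826 ± 217271 in the cKO and 961731 ± 772873 in the controls, a log2 fold change of -0.53 with an SE of 0.32 (limma adjusted p = 0.558). The 95% interval of the log2 fold change ran from -1.83 to 0.49 for mt-Rnr1 and from -1.20 to 0.14 for mt-Rnr2, so that neither a large fall nor no change lies outside the error.

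Among the mRNAs the log2 fold change was most negative for mt-Nd5 (-0.51, SE 0.29) and nearest 0 for mt-Nd6 (-0.33, SE 0.26), with limma adjusted p-values of 0.542 and 0.624. mt-Co1 averaged 58630 ± 17755 normalised reads in the cKO and 81285 ± 37201 in the controls (log2 fold change -0.40, limma adjusted p = 0.565). mt-Cytb averaged 35672 ± 11199 in the cKO and 52260 ± 27829 in the controls (-0.46, limma adjusted p = 0.560). The other 3, mt-Nd1, mt-Nd2 and mt-Nd4, had log2 fold changes of -0.45, -0.42 and -0.50. Values of cKO and control overlapped for 9 of 9 transcripts, where 1.01% of all tested genes did not overlap.

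The sizes of these differences rested on controls 4 and 5. Without these libraries the log2 fold changes were -0.03 for mt-Rnr1, -0.06 for mt-Rnr2 and between -0.11 (mt-Nd4) and -0.03 (mt-Nd1) for the mRNAs. For mt-Co1 the mean was 58630 normalised reads in the cKO and 61446 in the remaining 4 controls. Leaving out cKO 4 instead gave -0.38 for mt-Rnr1, -0.15 for mt-Nd1 and -0.43 for mt-Nd6. Other libraries worked the other way: mt-Rnr1 was -1.15 without control 3 and -1.10 without cKO 2. Of the 9 transcripts, 4 had an unadjusted p under 0.05 without cKO 2, 3 without control 1 and 2 without control 3, and none was called in these fits. Of all tested genes, 0.674%, 0.736% and 0.771% were called in these fits, in the same order. The share of all genes with such an unadjusted p was not counted there, so these counts have no background to be set against.

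**Figure D3:**
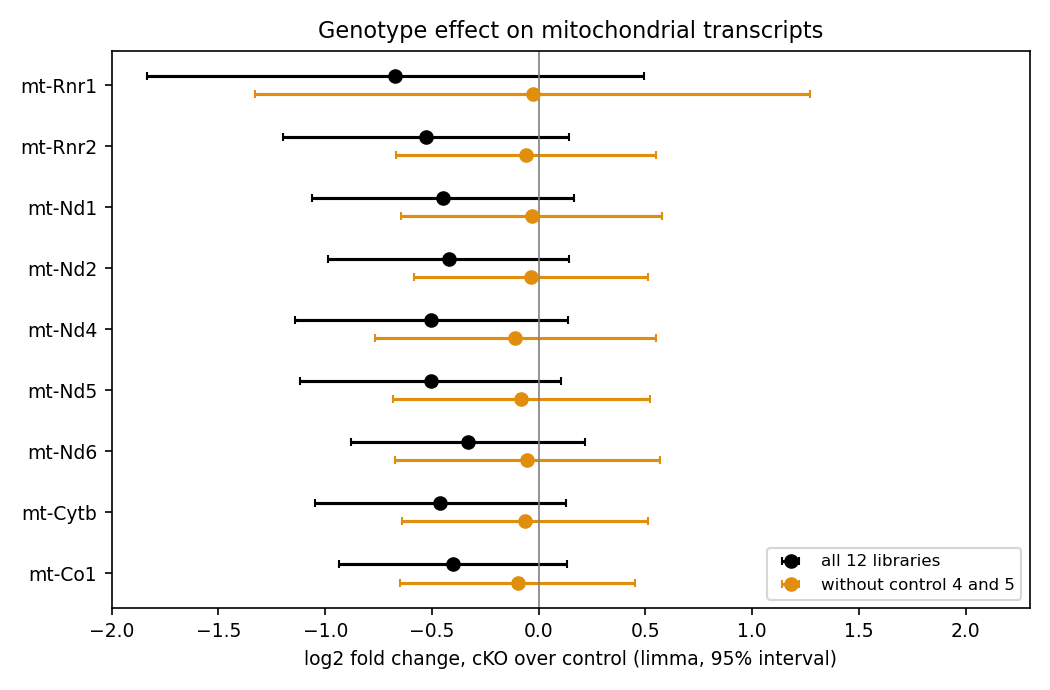
Log2 fold change (cKO over control) of each measured mitochondrial transcript with its 95% interval from limma, with all 12 libraries (black) and without controls 4 and 5 (orange). All intervals cross 0, and without the 2 libraries the estimates lie between -0.11 and -0.03.

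Within the libraries whose Y-linked sum was above 100 (3 cKO, 3 control) all 9 fold changes lay above 0, from 0.04 (mt-Nd6) to 0.18 (mt-Nd4). Within those under 100 (3 cKO, 3 control), all 9 lay below 0, from -1.46 (mt-Rnr1) to -0.70 (mt-Nd6). The limma p-values for the sets come from a joint fit of the 4 groups of genotype and set. Its error is pooled over all 12 libraries, so they do not rest on the libraries of a set alone. In the set above 100, limma gave 0 of 9 called and 0 of 9 with an unadjusted p under 0.05, where 0.25% of all tested genes were called and 2.56% had such a p. In the set under 100, limma gave 0 of 9 called (lowest adjusted p = 0.105) and 7 of 9 with an unadjusted p under 0.05, where 0.493% of all tested genes were called and 22.5% had such a p. Controls 4 and 5 and cKO 4 all belong to the set under 100. The difference between the sets was called for 0 of 9 transcripts by limma (lowest adjusted p = 0.562), and 0% of all tested genes were called. Its unadjusted p was under 0.05 for 7 of 9, where 8.77% of all tested genes had such a p.

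The authors' deposited table gave log2 fold changes of -0.69 for mt-Rnr1, -0.56 for mt-Rnr2 and between -0.48 (mt-Nd5) and -0.31 (mt-Nd6) for the 7 mRNAs. The lowest DESeq2 adjusted p there among mitochondrial rows was 0.806, for mt-Nd5, and 0.906% of the genes with an adjusted p in the authors' deposited table were under 0.05. These come from the same libraries and are no second measurement.

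Summed over a class, the transcripts gave the same picture. The summed rRNA was 655441 ± 289305 normalised reads in the cKO and 1224540 ± 1025820 in the controls, a difference of -0.55 in mean log2 (exact permutation of 12 libraries, two-sided, p = 0.387, adjusted over 8 such values 0.779). The summed mRNA was 177027 ± 52377 in the cKO and 254766 ± 129248 in the controls, a difference of -0.44 (exact permutation p = 0.249, adjusted 0.779). Without controls 4 and 5 the differences were 0.19 for rRNA and -0.03 for mRNA.

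As shares of the reads of a library, rRNA made up 2.41, 4.29, 1.78, 3.16, 4.94 and 6.00% in cKO 1 to 6, against 2.98, 3.44, 1.46, 14.2, 11.5 and 5.88% in control 1 to 6. The mRNAs made up 0.828, 1.17, 1.09, 0.562, 1.08 and 1.40% in cKO 1 to 6, against 0.702, 1.10, 0.990, 2.36, 1.85 and 1.37% in control 1 to 6. Wilson 95% intervals, which cover counting error only, reached at most 0.0211 percentage points to either side. The range of the shares over the libraries is thus far wider than counting error. Some libraries did not differ beyond it, such as cKO 3 and cKO 5 for the mRNAs, whose intervals overlapped. Outside controls 4 and 5, no library gave more than 7.40% of its reads to all mitochondrial transcripts together.

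rRNA and mRNA rose and fell together over the libraries. Pearson's r of the log2 sums over 12 libraries was 0.802 (100000 permutations, p = 0.00225, adjusted over 3 relations 0.00338), and Spearman's rho was 0.846 (permutation p = 0.00107, adjusted 0.00321). With genotype means subtracted, r was 0.784 (permutation p = 0.00276). The linear relation rested on controls 4 and 5, the libraries farthest from the median of rRNA. Without them r was 0.493 (permutation p = 0.147, n = 10), whereas rho was 0.733 (permutation p = 0.0210).

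Within the cKO libraries r was 0.476 (exact permutation p = 0.354, n = 6), and within the control libraries it was 0.897 (exact permutation p = 0.0208, n = 6). Whether these differ was not tested. The tRNA sum also went with the mRNA sum (r = 0.882, permutation p adjusted 0.00093) and with the rRNA sum (r = 0.742, permutation p adjusted 0.00641), but rests on 64 reads. For the mRNA sum the 2 farthest libraries were cKO 4 and control 4, without which its r with the tRNA sum was 0.765. Without controls 4 and 5 that r was 0.761, and the r of the tRNA sum with the rRNA sum was 0.405.

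Between single transcripts, the pairs of the 6 heavy-strand mRNAs had r from 0.878 to 0.997 with a median of 0.988, over 15 pairs and 12 libraries. These correlations are a description, since all points share their library and its scaling. The 10 pairs without mt-Co1 lay at 0.979 or above, and mt-Co1 stood at 0.878 to 0.937 with the others. mt-Rnr1 and mt-Rnr2 had r = 0.963 with each other, but 0.570 to 0.854 with the heavy-strand mRNAs. Without controls 4 and 5 that range was 0.163 to 0.614.

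mt-Nd6 of the light strand stood apart from the heavy-strand mRNAs, at r from 0.400 to 0.685. This rested on cKO 4, without which the range was 0.734 to 0.935. Without controls 4 and 5, and with cKO 4, the range was -0.214 to 0.395. Relative to the summed heavy-strand mRNA of the same library, the log2 value had an SD of 0.068 for mt-Cytb and 0.185 for mt-Co1. It was 0.604 for mt-Nd6, 0.602 for mt-Rnr2 and 1.17 for mt-Rnr1. That sum contains mt-Cytb and mt-Co1 themselves, which lowers their SDs, but not mt-Nd6 or the rRNAs, so these SDs are not like for like.

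**Figure D4:**
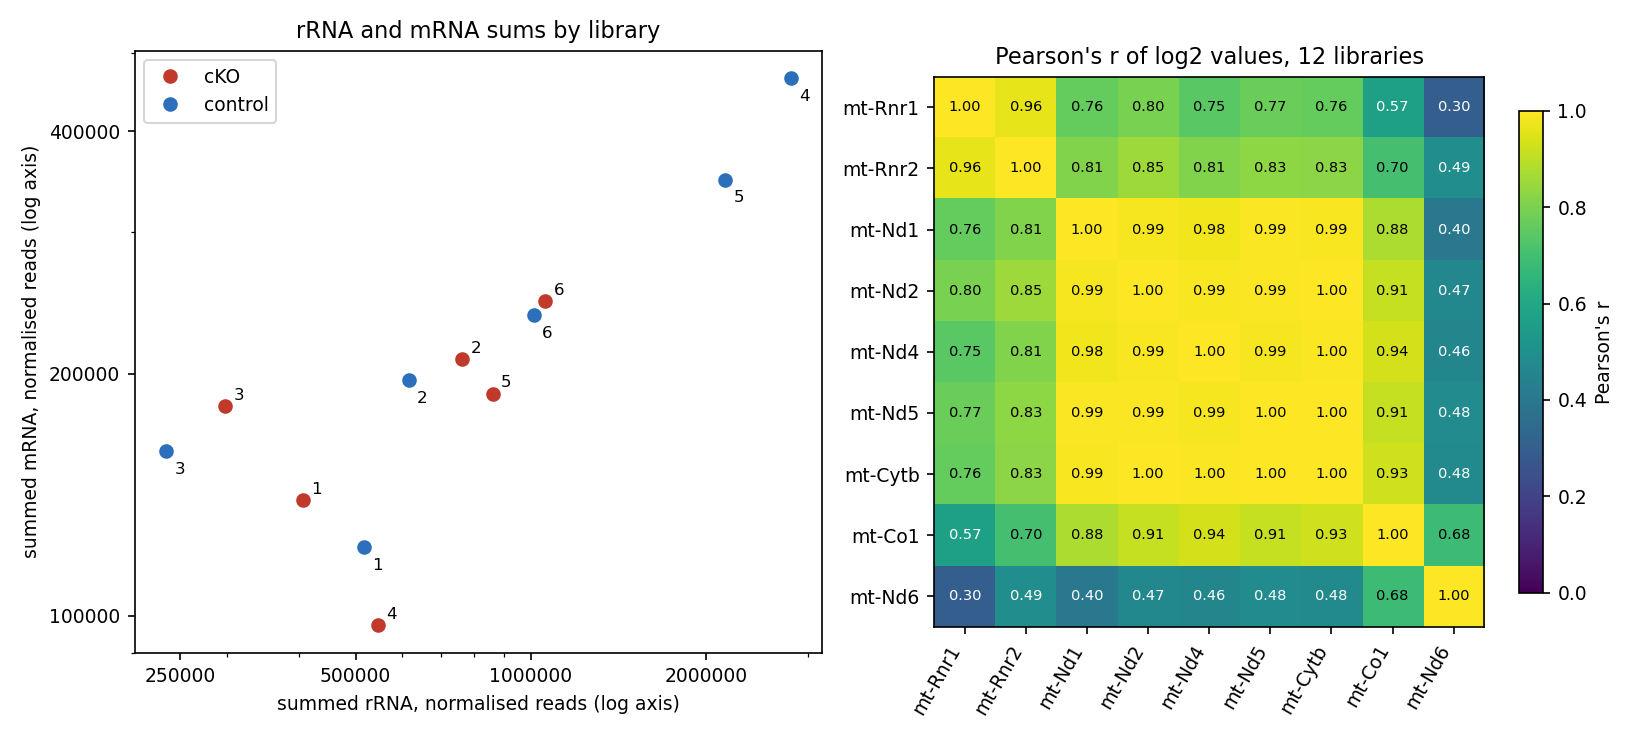
Left, summed mitochondrial mRNA against summed rRNA, both in normalised reads on log axes, each point 1 numbered library, cKO red and control blue, with controls 4 and 5 at the upper right. Right, Pearson's r of log2 values between pairs of the 9 measured transcripts over 12 libraries, in which the heavy-strand mRNAs form a block at 0.88 or above.

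Ratios within a library do not depend on the scaling between libraries. Summed rRNA over summed mRNA was 2.92, 3.66, 1.64, 5.61, 4.55 and 4.30 in cKO 1 to 6, against 4.24, 3.14, 1.47, 6.02, 6.20 and 4.29 in control 1 to 6. The log2 difference was -0.12 (exact permutation, two-sided, p = 0.758, adjusted over 8 values 0.814), less than the spread between libraries. Library 3 of each genotype had the lowest ratio.

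mt-Rnr1 over mt-Rnr2 was 0.157, 0.322, 0.0990, 0.161, 0.288 and 0.224 in cKO 1 to 6, against 0.232, 0.255, 0.0807, 0.297, 0.316 and 0.211 in control 1 to 6. Again library 3 was lowest in each genotype, and the genotypes did not separate (log2 difference -0.14, exact permutation p = 0.703, adjusted 0.814). Both rRNAs are the target of the depletion, whose efficiency in each library was not measured here, so its part in these ratios was not tested.

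mt-Nd6 as a percentage of the other mRNAs was 1.30, 1.38, 2.33, 5.27, 1.12 and 1.30% in cKO 1 to 6, against 1.41, 1.56, 2.41, 1.51, 1.57 and 1.62% in control 1 to 6. cKO 4 stood above all others, and library 3 of each genotype came next. The log2 difference between genotypes was 0.11 (exact permutation p = 0.814, adjusted 0.814), and without cKO 4 it was -0.20 (exact permutation p = 0.355).

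**Figure D5:**
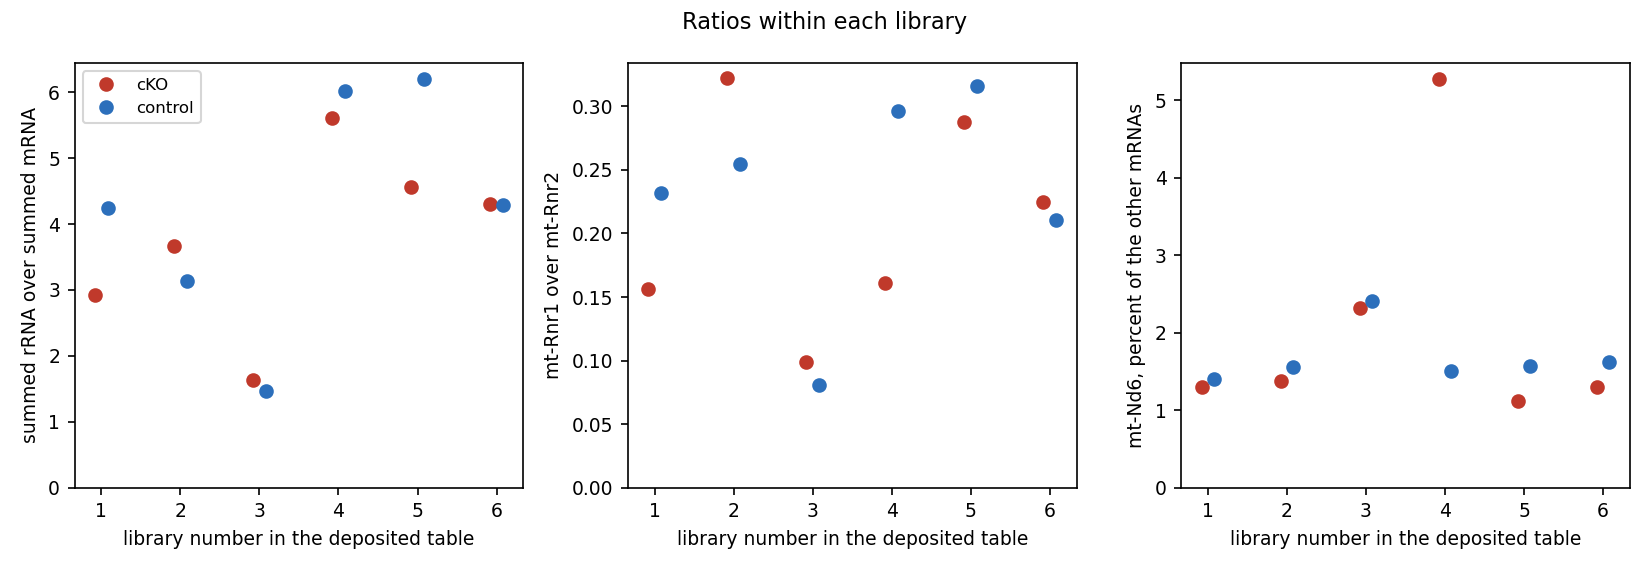
Ratio of summed rRNA to summed mRNA (left), of mt-Rnr1 to mt-Rnr2 (middle) and mt-Nd6 as a percentage of the other mRNAs (right) against library number, cKO red and control blue, each point 1 library. Library 3 of both genotypes is lowest in the left and middle panels, and cKO 4 reaches 5.27% in the right panel.

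The nuclear genes that transcribe and process mitochondrial RNA showed no called difference. Of 45 listed genes 32 were found and tested, and 0 were called by limma, with 0 at an unadjusted p under 0.05. Over all tested genes 0.834% were called and 9.73% had such a p, so 0 called of 32 is near the share of all genes. Their median log2 fold change was -0.00022, with 16 of 32 below 0. The lowest p-values belonged to Gabpa, a transcription factor of nuclear genes for mitochondrial proteins, with 372 ± 28.8 normalised reads in the cKO and 330 ± 32.8 in the controls (log2 fold change 0.18, limma adjusted p = 0.523), and Hsd17b10, a subunit of mitochondrial RNase P, with 401 ± 33.6 in the cKO and 477 ± 110 in the controls (-0.22, limma adjusted p = 0.544).

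Next came Peo1, the mitochondrial DNA helicase Twinkle, at 0.19 on the log2 scale, Fastkd2, an RNA-binding protein of the mitochondrial RNA granule, at -0.16, and Fastk, a relative required for mt-Nd6 mRNA, at -0.17. Fastk averaged 979 ± 198 normalised reads in the cKO and 1079 ± 55.1 in the controls (limma adjusted p = 0.612). Its lowest value of the 12 libraries was 591, in cKO 4, and the lowest control value was 1005. Other genes of this list also had an extreme in cKO 4: Tbrg4 was lowest there, at 318, and Tfam and Peo1 were highest, at 785 and 370. Whether Fastk bears on mt-Nd6 in cKO 4 was not tested.

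The nuclear subunits of oxidative phosphorylation, whose products join those of the mitochondrial mRNAs, gave 0 of 22 called by limma and 3 of 22 at an unadjusted p under 0.05, where 0.834% of all tested genes were called and 9.73% had such a p. Their median log2 fold change was -0.10, and 18 of 22 lay below 0. The 3 were Atp5o (-0.30) of ATP synthase, Ndufb8 (-0.43) of complex I and Cox5b (-0.31) of complex IV. All 3 were highest in controls 4 and 5. Ndufb8 had 3752 and 4008 normalised reads there and at most 2710 elsewhere. For Atp5o these were 4868 and 5180 against at most 3980, and for Cox5b 2369 and 2762 against at most 1983. Cox4i1, Cox6c, Cox7c, Atp5c1 and Cycs were also highest in both libraries. Atp5a1 and Ndufs1 were instead lowest there, Atp5a1 at 11317 and 12185 with at least 13320 elsewhere. The log2 sum of the 22 genes had r = 0.13 with the log2 rRNA sum and 0.15 with the log2 mRNA sum.

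Other genes moved with controls 4 and 5. Of the blood markers, 4 of 5 were tested and 0 were called by limma, with 3 at an unadjusted p under 0.05 and a median log2 fold change of -0.68. Their sum was 791 to 1583 normalised reads in the cKO and 916 to 3250 in the controls, with 2822 in control 4 and 3250 in control 5. Most of it was Hbb-b1, at 2341 and 2694 in controls 4 and 5 and at most 1246 elsewhere. Hba-a2 was also highest in both libraries, and Hba-a1 was highest in control 5. Alas2 was at 50.7 and 51.7 in controls 4 and 5 and highest in cKO 4, at 79.5. The cytosolic ribosomal protein genes, 88 in all, gave 0 called and 42 at an unadjusted p under 0.05, with a median of -0.35. The shares over all tested genes for these lists are again 0.834% called and 9.73% with such a p. Their sum was 110854 to 142616 normalised reads in the cKO and 108034 to 251444 in the controls, with 241541 in control 4 and 251444 in control 5. The 5 excitatory neuron markers, of which 0 were called, summed to 88948 to 108198 normalised reads in the cKO and 102044 to 117992 in the controls. The lowest sum was that of cKO 4 and the highest that of control 4, but the markers did not run alike. Camk2a, the most abundant, had 57371 in cKO 4 and 90754 in control 4. Slc17a7, the vesicular glutamate transporter, was instead lowest in controls 4 and 5, at 22208 and 22117, with at least 26356 elsewhere. Oligodendrocyte markers summed to 56780 to 78791 in the cKO, lowest in cKO 4, and to 57617 to 94914 in the controls, highest in control 4, and vascular markers had the same extremes. Malat1, an abundant nuclear noncoding RNA, was 48648 normalised reads in control 4 and 38447 in control 5, and 14143 to 38041 in the other 10 libraries. The part of these differences between libraries in the mitochondrial levels was not tested.

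Genes outside the mitochondrial genome whose log2 values ran most like the mRNA sum over the 12 libraries were Parp4 (r = 0.976), Inppl1 (0.943), Neurl1b (0.942), Appl2 (0.940) and Fgf13 (0.937). Most like the rRNA sum were Srp19 (0.915), Nfatc3 (0.912), Tcf12 (0.912), Fam194a (0.902) and Maml2 (0.901). Without controls 4 and 5 these were 0.873 (Neurl1b) to 0.970 (Parp4) for the mRNA sum and 0.769 (Srp19) to 0.864 (Tcf12) for the rRNA sum. They are the highest of 14388 genes and are given as a description. An r above 0.8 with the mRNA sum was held by 2.43% of these genes, and with the rRNA sum by 0.570%. An r below -0.8 was held by 3.51% and 0.751% of them.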

How the data were processed

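Each library started from 250 ng of total RNA, per the labels' protocols. Tools named in the submitters' processing notes are STAR, Bowtie, Trim Galore and bedtools, with build mm9, and no settings. The file headers name the deposited values as DESeq2-normalised counts, which are treated as a signal in scaled reads. Within a library all values above 0 were whole multiples of 1 step (100%, tolerance 0.01), which gave whole reads. The authors' deposited table also holds a log2 fold change, a score (Wald statistic), a p-value and an adjusted p-value per gene.

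The members and gene lists were chosen with earlier results of these data known. The 9 measured transcripts, every mt- mRNA and the 5 listed nuclear genes of lowest p were named by a fixed rule, as were the 5 genes most correlated with each sum. The rule also asked for up to 5 tRNAs, of which 2 had reads. No member was called in the RNA quality list (5 of 12 found) or among markers of interneurons, oligodendrocytes and their precursors, microglia, vessels and choroid plexus. The test was limma 3.58.1 with a trend on log2(value + 1), two-sided. Its terms were genotype and whether the sum of 4 Y-linked genes passed 100, and genes averaging 10 or more were tested. Benjamini-Hochberg adjusted p under 0.05 was called. Fold changes on this scale understate those of low genes. Sums and ratios were tested by exact permutation of the 12 libraries (924 arrangements, smallest p 0.00216). Alternatives were other pseudocounts, filters, scalings and terms, edgeR 4.0.16 and DESeq2 1.42.0 on recovered reads, a replicate block and leaving out libraries. The comparison of same-numbered columns, mt-Nd6 without cKO 4 and levels over unshared bases were added after seeing the data. Copies were sought with 50-base words and blastn 2.17.0 in GENCODE M21 transcripts of GRCm38, whose sequences are printed. Fits were tested on simulated data. R was 4.3.3.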

Additional observations from a re-analysis of the deposited data

Results flagged for a closer look

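In the cKO group, mt-Nd6 as a percentage of the other mitochondrial mRNAs was 5.27% in cKO 4, far from the other 5 libraries, of which the highest was 2.33%. The gap made up 0.710 of the range of the group, above Dixon's 95% limit for 6 samples. In the control group the same quantity was 2.41% in control 3, where the next was 1.62%, a gap of 0.791 of the range. Of 34 groups of 6 examined, these 2 were the ones past the limit, and chance alone takes about 1 group in 20 past it.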

How the results depend on the processing

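Under the alternatives fitted over both sets of libraries, 0 of the 9 measured transcripts were called and their log2 fold changes lay below 0, whereas within the set with a Y-linked sum above 100 all 9 lay above 0. mt-Rnr1 ranged from -1.15 to -0.38 with single libraries left out. The number of all genes called was 120, with 97 to 123 when single libraries were left out and 94 to 178 in the other settings. Without controls 4 and 5 the log2 difference was 0.19 for summed rRNA (-0.55 with all libraries), 0.30 for summed tRNA (-0.52) and 0.22 for the rRNA to mRNA ratio (-0.12). The cause was not tested. With single libraries left out, the log2 difference was -0.93 to -0.22 for rRNA, -0.62 to -0.23 for mRNA, -0.77 to -0.10 for tRNA and -0.39 to 0.10 for the ratio, which lay above 0 without cKO 3, control 4 or control 5. The correlation of rRNA with mRNA was 0.691 to 0.869 with single libraries left out, 0.493 without controls 4 and 5 and 0.476 in the cKO alone. The mt-Nd6 ratio was -0.20 without cKO 4. The correlation of deviations in same-numbered columns was over 0.1 for 4 of 6 numbers, and 3 of 6 matched best both ways. Pairing was accepted only if all 6 passed, so the numbers were not taken as pairs. Within numbers, the mRNA sum was higher in the cKO in 4 of 6 and the mt-Nd6 share lower in 5 of 6. The replicate block gave 118 genes called and 0 of the 9, with paired p-values of 0.375 for rRNA, 0.5 for mRNA, 0.719 for tRNA and 0.4375 for the ratio (exact sign flips). Depth limits the tRNAs (64 reads) and the 6 mRNAs with 11 reads.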

Other observations

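The ratio of summed rRNA to summed mRNA ran alike in columns with the same number, with r = 0.918 between cKO and control over the 6 numbers (exact permutation p = 0.0153, adjusted over 5 quantities 0.0764). This comparison was chosen after the values were seen and does not pass the adjustment. Without numbers 3 and 4 it was 0.486 (n = 4). For mt-Rnr1 over mt-Rnr2 r was 0.744 (exact permutation p = 0.0708, adjusted 0.177), and for the mRNA sum it was -0.330.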
